A study of Homo sapiens with 4 samples.

Results

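The mRNA levels of 8 genes that set the stability of the N-Myc protein were examined in IMR-32 cells with and without knockdown of the transcription factor NeuroD1. The genes were taken by symbol from a count table of 60612 genes. FBXW7, HUWE1 and TRIM32 encode ubiquitin ligases or their substrate-binding part, SKP1 and CUL1 encode the shared scaffold of the FBXW7 ligase, and AURKA, GSK3A and GSK3B encode kinases. All 8 were among the 17537 genes with enough counts to test.

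IMR-32 is an established line of human neuroblastoma cells in which MYCN is amplified. The cells stably carried a doxycycline-inducible short hairpin, either a negative control (shControl, 2 libraries) or a sequence directed at NeuroD1 (shNeuroD1, 2 libraries), and all of them were given doxycycline at 1 μg/mL for 48 h. The labels give the control cells a WT genotype and the knockdown cells the NeuroD1 hairpin, and leave unsaid whether libraries of 1 group came from different cultures, so p-values measure only the spread between these libraries. The study's own column headings name the same NeuroD1 hairpin for both knockdown libraries, so effects of that hairpin's sequence and of NeuroD1 loss cannot be told apart.

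N-Myc is a short-lived protein whose level depends on phosphorylation and ubiquitination as well as on transcription. A priming kinase phosphorylates a serine in its conserved degradation signal, GSK3 then phosphorylates the neighbouring threonine, and FBXW7, the substrate receptor of an SCF ligase built on CUL1 and SKP1, binds the doubly phosphorylated signal and sends the protein to the proteasome. HUWE1, a very large ligase of the HECT class, ubiquitinates N-Myc in neural progenitors by another route, and TRIM32 is a RING ligase known to target MYC-family proteins in neural progenitors. AURKA, the mitotic kinase Aurora A, binds N-Myc and protects it from FBXW7, independently of its kinase activity. These relations act on protein, which RNAseq does not measure.

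Sequences of 2 of the genes are shown because the reads were assigned to alternative first exons of HUWE1 and to a short optional exon of GSK3B. The HUWE1 windows are the 250 bases before 2 annotated RefSeq starts on the minus strand of the X chromosome (GRCh38), at chrX:53686720-53686969 for the upstream start and chrX:53684137-53684386 for the downstream start. The exon that the deposited tables list for the downstream start begins further out than this RefSeq start, so the end of that window lies inside the listed exon. The TRIM32 window (plus strand, chr9:116687055-116687304) is shown as an example. It holds the sequence class that NeuroD1 and its E protein partners bind, the E-box CANNTG, marked in capitals. The E-box reads as CANNTG on either strand.
HUWE1 upstream start: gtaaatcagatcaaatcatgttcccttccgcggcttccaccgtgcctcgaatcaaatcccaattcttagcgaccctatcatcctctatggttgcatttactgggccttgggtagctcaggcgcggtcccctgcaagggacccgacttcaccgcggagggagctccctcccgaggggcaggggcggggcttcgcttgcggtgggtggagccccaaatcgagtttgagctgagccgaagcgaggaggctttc
HUWE1 downstream start: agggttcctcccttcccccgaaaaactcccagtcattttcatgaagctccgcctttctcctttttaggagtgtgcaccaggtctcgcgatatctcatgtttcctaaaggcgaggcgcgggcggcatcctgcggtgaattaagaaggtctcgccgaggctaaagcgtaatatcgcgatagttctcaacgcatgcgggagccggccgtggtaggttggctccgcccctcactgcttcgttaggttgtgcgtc
TRIM32 start: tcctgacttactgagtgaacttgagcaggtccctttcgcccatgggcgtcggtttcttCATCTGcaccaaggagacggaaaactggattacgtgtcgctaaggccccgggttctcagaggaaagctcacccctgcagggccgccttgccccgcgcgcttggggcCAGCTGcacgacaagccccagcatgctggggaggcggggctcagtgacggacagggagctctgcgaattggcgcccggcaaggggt
GSK3B optional exon: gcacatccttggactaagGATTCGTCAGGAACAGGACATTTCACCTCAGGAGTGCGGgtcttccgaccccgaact

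Neither HUWE1 window holds a CANNTG word, and the window of another RefSeq start of HUWE1 at 53683845 holds none either. The TRIM32 window holds CATCTG, which is the reverse complement of the NeuroD1-type word CAGATG, at 192 bases and CAGCTG at 86 bases before the start. The window of another TRIM32 start at 116687569 holds no such word. Windows of CUL1 hold CAGATG at 73 bases before the start at 148697756 and CAGGTG at 223 bases before that at 148698363. The CUL1 window before 148698903, nearest to the listed start at 148698857 that took most of its FPKM, holds none. An FBXW7 window holds CAGCTG at 73 bases before the start at 152382529. No transcript start of FBXW7 was listed there, and its windows before 152352826, 152535241 and 152536092 hold no CANNTG word. The SKP1 window holds CAGTTG at 247 bases before the start at 134176950. Of 34788 RefSeq promoter windows of this length, 61.8% hold a CANNTG word and 12.2% hold CAGATG on either strand, so such a match is common. AURKA had no entry among the promoter sequences used here. In the GSK3B line, the 39 bases in capitals are the optional exon (chr3:119866590-119866628, minus strand, GENCODE 29 on GRCh38), between the last 18 bases of the exon before it and the first 18 of the exon after it. The exon holds 13 codons and keeps the reading frame.

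The libraries held 14665210 to 16482463 counts. Levels are given in CPM, counts scaled to library size with factors from the trimmed mean of M-values (TMM). NEUROD1, the targeted gene, had 419 and 415 CPM in shControl and 63.7 and 58.2 CPM in shNeuroD1, 14.6% of the control mean. MYCN (ENSG00000134323), which encodes N-Myc, had 2024 and 1945 CPM in shControl and 1969 and 1980 CPM in shNeuroD1. The MYCN groups overlapped, and its change was -0.01 on the log2 scale (SE 0.04, adjusted p 0.886 in edgeR), so the mRNA did not differ beyond the spread between libraries. MYCN shares exon sequence with the antisense gene MYCNOS, and the use of strand in counting was not stated. Of the adrenergic neuroblastoma markers all 10 were tested, with 4 lower and 5 higher in shNeuroD1 (2 and 5 with scaling by library size alone) and summed levels of 2240 and 2220 CPM against 2020 and 1990 CPM. The other markers were low in comparison. Summed blood and immune markers lay between 0.441 and 0.657 CPM, epithelial markers between 0.0678 and 1.84 CPM, Schwann cell markers between 5.42 and 10.1 CPM and fibroblast markers between 36.2 and 49.4 CPM, with the blood markers CD3E, HBA1 and HBB and the epithelial CDH1 at 0 in all 4 libraries. Mesenchymal markers, led by VIM, summed to 491 and 494 CPM in shControl and 740 and 732 CPM in shNeuroD1, with 5 of 8 tested lower, 2 higher and PRRX1 at 0 in all 4 libraries. The part of these shifts in the results below was not tested.

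The 8 genes split in direction. By edgeR's quasi-likelihood test, adjusted over every gene tested after Benjamini and Hochberg (called at an adjusted p under 0.05), 3 of 8 were lower in shNeuroD1 (AURKA, GSK3A and TRIM32), against 28.2% of all genes tested. A further 2 of 8 were higher (HUWE1 and GSK3B), against 26.8% of all genes tested. FBXW7, SKP1 and CUL1 were not called. By DESeq2, the test the study used, 1 of 8 was lower (AURKA), against 19.2% of all genes it tested, and 1 of 8 was higher (HUWE1), against 14.8%. None of the 8 had a log2 fold change beyond 1 together with an adjusted p under 0.05, against 13.9% of all genes tested. The median log2 fold change was -0.10 over the 8 genes and 0.01 over all genes tested, and the median size of change was 0.18 and 0.34. In CPM the groups did not overlap for any of the 8 genes, with 5 lower and 3 higher, but 37.6% of all genes tested were lower without overlap and 38.4% were higher without overlap. Groups apart in this way were thus common among all genes. With 2 libraries against 2 an exact permutation test of a single gene cannot go below p = 0.33.

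**Figure D1:**
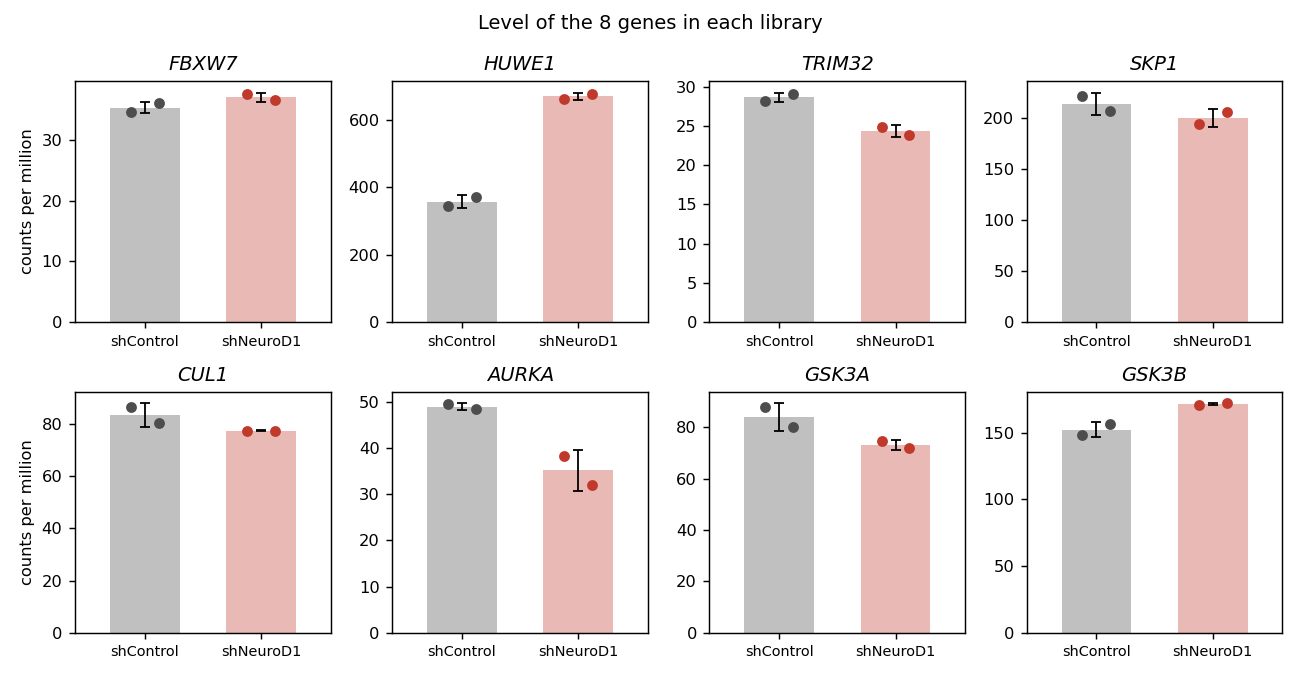
Level of each of the 8 genes in TMM-scaled CPM (y axis, from 0, a separate scale for each gene). Points are the 2 libraries of a group, bars their mean and error bars the SD. HUWE1 rises from a mean of 358 to 670 CPM, AURKA falls from 48.9 to 35.2 CPM, and the other 6 genes differ by smaller shares of their level.

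Levels were compared between genes in FPKM, which scales fragments for transcript length and library size, from the deposited transcript starts that lie within each gene on its strand, summed per library. SKP1 was highest, at 40.3 to 51.6 FPKM over the 4 libraries, and GSK3A was next at 24.1 to 32.5 FPKM. HUWE1 (10.8 to 21.0), CUL1 (15.6 to 17.98), GSK3B (13.2 to 18.5) and AURKA (8.84 to 15.8 FPKM) followed, and each overlapped its neighbour in this order. The receptor FBXW7, at 3.87 to 5.48 FPKM, and TRIM32, at 3.72 to 4.94 FPKM, were lowest, overlapped each other and stayed below the other 6 genes in all 4 libraries. That order held for starts and not for transcript ends. Summed ends of SKP1 were 9.39 and 21.2 FPKM in shControl and 4.95 and 0.18 FPKM in shNeuroD1, against 4.26 and 3.77, and 5.34 and 4.75 FPKM, for FBXW7. By ends FBXW7 was thus below SKP1 in both controls and above it in both knockdown libraries, and GSK3A ends, at 4.32 FPKM in shNeuroD1 replicate 1, were below FBXW7 there.

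FBXW7 (ENSG00000109670, chr4:152320544-152536063, minus strand) had 34.6 and 36.0 CPM in shControl and 37.5 and 36.4 CPM in shNeuroD1. The groups lay next to each other without overlap. Its change was 0.07 on the log2 scale (SE 0.08, adjusted p 0.466 in edgeR; DESeq2 adjusted p 0.808), and it was called only where libraries were scaled by size alone (0.18, adjusted p 0.0421), a scaling that moved the median of all genes to 0.12. Limma on log2(FPKM + 1) of the summed starts gave a larger value without a call (0.33, adjusted p 0.23), the starts having 3.89 and 3.87 FPKM in shControl and 5.48 and 4.78 FPKM in shNeuroD1. The gene has alternative first exons that give proteins with different N-termini and places in the cell. The far upstream exons give the alpha form of 707 codons (nuclear), and the start at 152352826 gives the beta form of 627 codons (cytoplasmic). The beta start was listed at 1.78 and 1.87 FPKM in shControl and 2.78 and 2.81 FPKM in shNeuroD1, so it was higher in both knockdown libraries. Its share of the FPKM of the gene was 45.9% and 48.3% in shControl against 50.8% and 58.8% in shNeuroD1, a difference of 7.73 percentage points with an SD of 5.64 in shNeuroD1. A main upstream start (152534941 to 152536063) had 2.11 and 1.10 FPKM in shControl and 1.85 and 1.74 FPKM in shNeuroD1, and a second one with the outer end at 152536092 was not listed in 1 of the shControl libraries. Leaving out starts not listed in all 4 libraries gave beta shares of 45.9% and 62.9% against 60.01% and 61.7%, and the groups then overlapped.

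SKP1 (ENSG00000113558, chr5:134148935-134177038, minus strand), the adaptor that holds the F-box protein, had 222 and 206 CPM in shControl and 194 and 206 CPM in shNeuroD1. The second library of each group lay within 1 CPM of the other. The change was -0.10 on the log2 scale (SE 0.05, adjusted p 0.075 in edgeR), and it was 0.01 where libraries were scaled by size alone. With the replicate number as a block it was called (-0.10, adjusted p 0.0492). The SKP1 starts sit in the event tables under the neighbouring gene CDKL3, and the summed starts had 40.3 and 51.6 FPKM in shControl and 41.6 and 44.5 FPKM in shNeuroD1. CUL1 (ENSG00000055130, chr7:148697914-148801036, plus strand), the cullin that carries the RING subunit, had 86.5 and 80.1 CPM in shControl and 77.4 and 77.1 CPM in shNeuroD1. Its change was -0.11 on the log2 scale (SE 0.06, adjusted p 0.107 in edgeR) and came to 0.00 with scaling by library size alone. Most of its FPKM came from the start at 148698857, with 99.4% and 91.7% in shControl against 91.4% and 92.7% in shNeuroD1. CUL1 overlaps an antisense gene with 25 to 55 counts, and SKP1 overlaps exons of TCF7 on the opposite strand, with 39 to 96 counts, both small beside the 1174 to 3277 counts of CUL1 and SKP1.

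HUWE1 (ENSG00000086758, chrX:53532096-53686729, minus strand) had the largest change of the 8 genes. It had 343 and 372 CPM in shControl and 662 and 678 CPM in shNeuroD1, from 5061 and 5911 counts against 10067 and 10323 counts. Both knockdown libraries lay far above both controls. The change was 0.90 on the log2 scale (SE 0.04, adjusted p 3.87e-18 in edgeR), a 1.87-fold rise, and 83.0% of genes tested had a smaller change in size. DESeq2 gave 0.89 (SE 0.05, adjusted p 2.01e-70). The gene has 17.4 kb of annotated exon sequence over all its transcripts. With trends on gene length and GC content removed the log2 fold change was 0.73 and still called. The 1773 tested genes with at least 10 kb of exon had a median log2 fold change of 0.00, with 33.3% lower and 32.6% higher, and 158 of them rose more than HUWE1. Limma on assembled FPKM gave 0.50 (adjusted p 0.311).

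The HUWE1 reads were also assigned differently to its first exons. The upstream start (53686588 to 53686719, the exon that follows the first window printed above) had 2.62 and 3.54 FPKM in shControl and 12.5 and 15.3 FPKM in shNeuroD1. The downstream start (53683874 to 53684169) had 8.15 and 14.6 FPKM in shControl and 6.84 and 5.73 FPKM in shNeuroD1. Both knockdown libraries lay above both controls at the upstream start and below both at the downstream start. The upstream share was 24.3% and 19.5% in shControl against 64.7% and 72.8% in shNeuroD1, or 21.9% ± 3.44 (SD, n = 2) against 68.7% ± 5.70 (SD, n = 2). Among 4241 genes with at least 2 listed starts and at least 5 FPKM in every library, 62.7% had a start whose shares did not overlap between the groups, while 42 (0.99%) had a gap between the groups at least as wide as the 40.4 percentage points of HUWE1. The full-length coding transcripts annotated from both starts encode 4374 codons each, so the starts differ outside the coding sequence. FPKM at the HUWE1 ends summed to 19.1 and 11.9 in shControl and 38.1 and 39.1 in shNeuroD1, against 10.8 and 18.2, and 19.4 and 21.0, at the starts. The 2 sums put the control libraries in opposite order, which shows how far an assembled FPKM can move within a group.

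**Figure D2:**
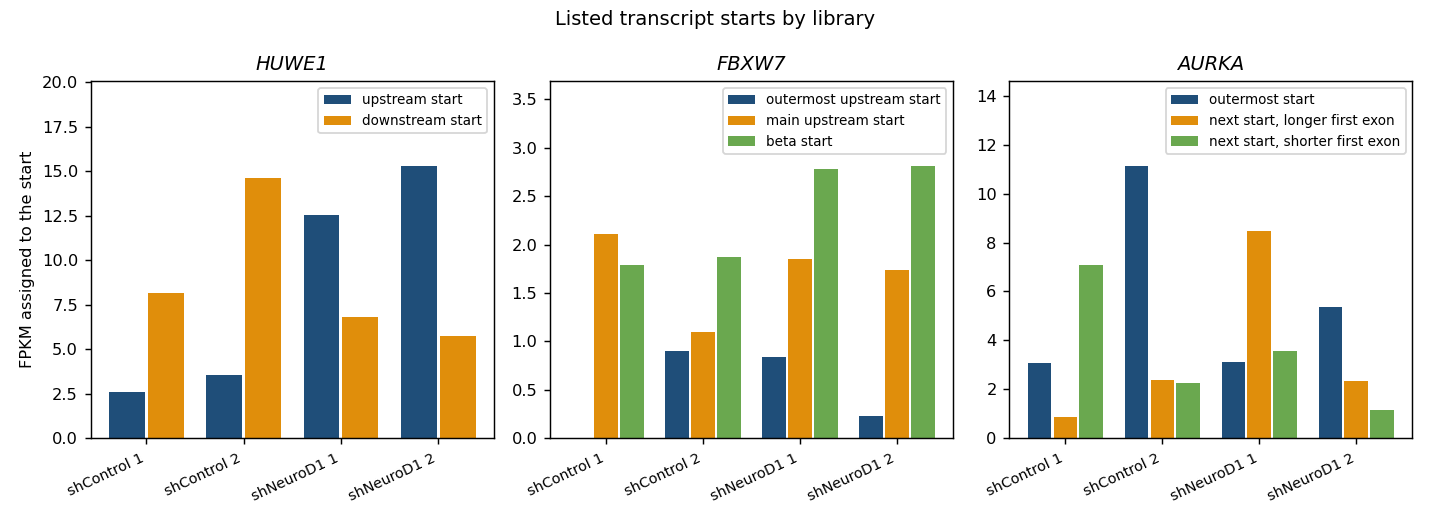
FPKM of the listed transcript starts (y axis, from 0) in each library (x axis) for HUWE1, FBXW7 and AURKA, with 1 bar per start and no error bars because each bar is 1 library. In HUWE1 the upstream start exceeds the downstream start in the shNeuroD1 libraries and falls below it in the shControl libraries. In AURKA libraries of the same group differ in which start is highest.

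Introns of HUWE1 hold, on the same strand, the hairpins MIR98 (chrX:53556223-53556341) and MIRLET7F2 (chrX:53557192-53557274). Their 5′ mature forms belong to the let-7 family, which represses MYCN through sites in its mRNA, and are shown because they share the seed (bases 2 to 8, in capitals).
hsa-miR-98-5p: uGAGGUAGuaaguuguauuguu
hsa-let-7f-5p: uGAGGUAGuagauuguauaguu
The poly(A) libraries do not measure mature microRNAs. The MIR98 hairpin had 0 to 2 counts and MIRLET7F2 had 0 in all 4 libraries, so no change at these rows could be seen at this depth.

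The 3 tested genes, among those averaging 10 CPM or more, whose centred log2 CPM ran nearest to HUWE1 over the 4 libraries, of 10559 compared, were SAMD4A, GABPB1-AS1 and NKAP. Their root mean square differences from HUWE1 were 0.01, 0.01 and 0.02 on the log2 scale. GABPB1-AS1, a long noncoding RNA, had 335 and 365 CPM in shControl and 658 and 660 CPM in shNeuroD1, close to HUWE1 in level as well. SAMD4A, an RNA-binding translational repressor, had a log2 fold change of 0.89 and NKAP 0.87. With 2 libraries a group, many genes can share such a shape.

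TRIM32 (ENSG00000119401, chr9:116687302-116701300, plus strand) had 28.2 and 29.1 CPM in shControl and 24.9 and 23.8 CPM in shNeuroD1. Both knockdown libraries lay below both controls. The change was -0.23 on the log2 scale (SE 0.09, adjusted p 0.0221 in edgeR). It was not called by DESeq2 (-0.25, adjusted p 0.197), with scaling by library size alone (-0.12), or with any 1 of the 4 libraries left out (-0.27 to -0.20). Limma on log2(FPKM + 1) turned the sign (0.05, adjusted p 0.892). Summed ends had 1.52 and 2.02 FPKM in shControl and 2.26 and 2.48 FPKM in shNeuroD1, higher in both knockdown libraries and so opposite to the counts. TRIM32 rested on 363 to 462 counts, where counting error alone is 5.25% at the lowest. It lies in an intron of ASTN2, which runs on the opposite strand.

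AURKA (ENSG00000087586, chr20:56369389-56392337, minus strand) had 49.5 and 48.4 CPM in shControl and 38.3 and 32.0 CPM in shNeuroD1. Both knockdown libraries lay below both controls and differed more from each other than the controls did. The change was -0.48 on the log2 scale (SE 0.08, adjusted p 3.61e-06 in edgeR; DESeq2 -0.49, adjusted p 0.000545), or 71.9% of the control mean. With shControl replicate 1 left out it was -0.47 (adjusted p 0.0624) and with shControl replicate 2 left out -0.50 (adjusted p 0.0551), neither called. Limma on log2(FPKM + 1) of the starts gave -0.17 (adjusted p 0.757). AURKA is transcribed mainly in late cell cycle, and it was also a member of a list of 54 G2/M genes from Seurat, of which 52 were lower and 1 higher (JPT1) in shNeuroD1 with a median log2 fold change of -0.78. Summed, these genes had 10900 CPM in each shControl library and 6590 and 6670 CPM in shNeuroD1. The part of cell cycle composition in the AURKA result was not tested, and in bulk samples fewer cells in a phase and less RNA per cell cannot be told apart. The starts of AURKA lie close together, and the assembled FPKM went mainly to different starts in libraries of the same group. The share of the start at 56392337 was 27.9% and 70.6% in shControl against 20.5% and 60.7% in shNeuroD1, with overlap. The share of the start from 56392154 to 56392295 was 7.95% and 15.1% in shControl against 56.0% and 26.2% in shNeuroD1, higher in both knockdown libraries, which differed widely from each other (SD 21.1 percentage points). Summed ends had 7.95 and 9.05 FPKM in shControl and 5.56 and 5.88 FPKM in shNeuroD1. A processed copy of AURKA, AURKAP1, had at most 15 counts in a library.

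The genes of GSK3, the kinase that completes the degradation signal, moved in opposite directions. GSK3A (ENSG00000105723, chr19:42230186-42242625, minus strand) had 87.8 and 80.1 CPM in shControl and 74.6 and 71.8 CPM in shNeuroD1, which is a change of -0.20 on the log2 scale (SE 0.06, adjusted p 0.00498 in edgeR). GSK3B (ENSG00000082701, chr3:119821323-120094417, minus strand) had 148 and 156 CPM in shControl and 171 and 172 CPM in shNeuroD1, which is a change of 0.17 on the log2 scale (SE 0.05, adjusted p 0.0024 in edgeR). Neither group pair overlapped, and both differences were small beside those of HUWE1 and AURKA. DESeq2 did not call either, with adjusted p of 0.0613 for GSK3A and 0.0526 for GSK3B. GSK3A was also not called with scaling by library size alone (-0.08) or without shControl replicate 1 (-0.14) or shNeuroD1 replicate 2 (-0.17), and GSK3B was not called without shControl replicate 1 (0.12). Limma on log2(FPKM + 1) called neither (-0.14 for GSK3A and 0.24 for GSK3B).

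Within a library the scaling cancels, so the ratio of GSK3A to GSK3B counts was also taken. It was 0.593 and 0.513 in shControl against 0.437 and 0.418 in shNeuroD1. The ratio was lower in both knockdown libraries, a difference of -0.37 on the log2 scale. As with any single value here, no exact permutation test of 2 against 2 could reach the threshold. The ratio of FBXW7 to HUWE1 counts was 0.101 and 0.097 in shControl against 0.057 and 0.054 in shNeuroD1, also without overlap. Apart from the cancelled scaling, both ratios restate the changes of their genes given above and are not separate observations.

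GSK3A had a single listed start (42242183 to 42242602), placed in the event tables under the neighbouring gene ERF, with 32.5 and 26.6 FPKM in shControl and 29.5 and 24.1 FPKM in shNeuroD1. GSK3B had a main start at 120094447 that took 95.6% to 99.2% of its FPKM. The 39-base exon printed above, in the part of GSK3B that codes for the kinase domain in a form known from neurons, was included at 1.84 and 0.356 FPKM in shControl and 2.77 and 2.51 FPKM in shNeuroD1. Its inclusion was 11.9% and 2.70% in shControl against 15.0% and 15.9% in shNeuroD1. Both knockdown libraries lay above both controls, but the control libraries differed from each other by more than either knockdown library differed from the higher control. A 99-base exon of GSK3B (chr3:119843255-119843353) was included at 87.4% and 95.6% in shControl against 99.2% and 98.9% in shNeuroD1. Here too the controls differed from each other by more than either knockdown library differed from the higher control. In shControl replicate 2 and both shNeuroD1 libraries the skipped FPKM (0.586, 0.153 and 0.166) equalled that of a minor start at 119876508. Inclusion there repeats the share of the main start and is not a separate observation.

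**Figure D3:**
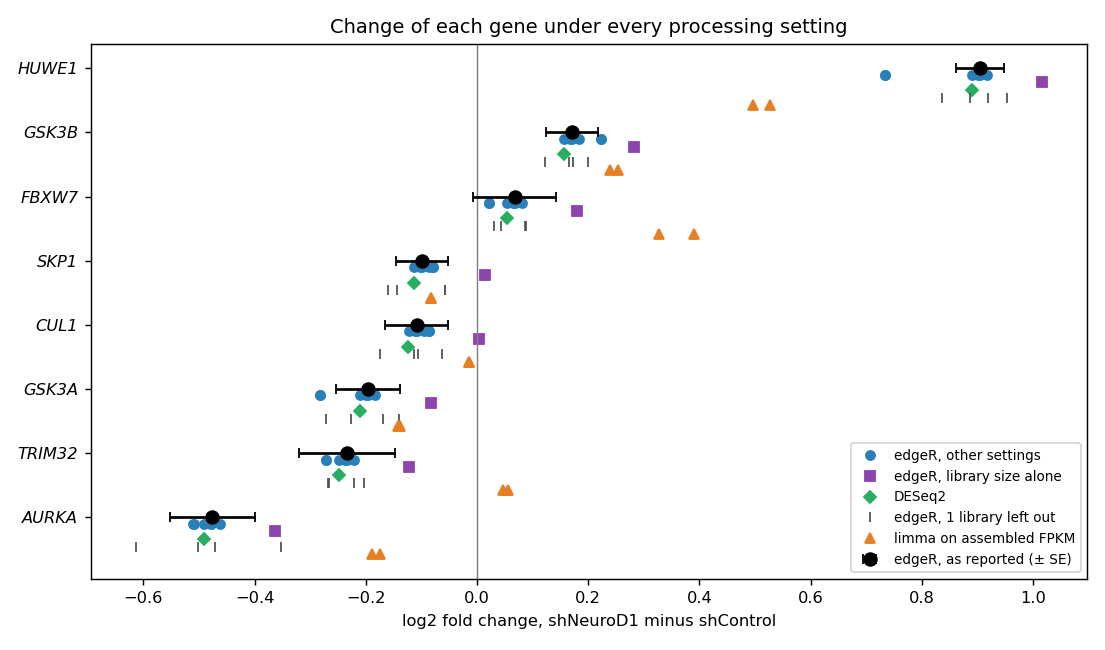
Log2 fold change, shNeuroD1 minus shControl (x axis), of each of the 8 genes (y axis) under each processing setting. Black points with bars are the reported edgeR values with their SE, and coloured marks are the alternatives. HUWE1 lies between 0.50 and 1.02 and AURKA between -0.61 and -0.17, scaling by library size alone moves each gene to the right, and TRIM32 crosses 0 with assembled FPKM.

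The wider ubiquitin system around the 8 genes was described by lists, each read against 28.2% of all genes lower and 26.8% higher. The split moves with scaling, since 4939 genes were lower and 4698 higher as reported and 3639 were lower and 6114 higher with scaling by library size alone. Of the 8 cullins, 3 were lower and 2 higher (1 and 4 with scaling by library size alone, 1 and 2 with length and GC trends removed), with a median log2 fold change of -0.03. CUL3, the scaffold of BTB-domain ligases, was the lowest at -0.42, followed by CUL2 at -0.22 and CUL5 at -0.14 (not called by DESeq2). CUL7 (0.45) and CUL9 (0.34) rose. Of 60 F-box proteins tested, 17 were lower and 25 higher (13 and 13 of 61 by DESeq2, 12 and 31 with scaling by library size alone), with a median of 0.09 against 0.01 for all genes tested. SKP2, the F-box protein that degrades the CDK inhibitor p27, fell from 272 and 268 CPM to 146 and 151 CPM, a log2 fold change of -0.86. FBXL7 (-1.09) and FBXO48 (-0.82) fell too, and FBXO6 (1.78), FBXL9P (1.77) and FBXO32 (1.51, not called by DESeq2) rose from levels under 2 CPM.

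Among 24 genes of the neddylation cycle, which switches cullins on and off, 10 were lower and 3 higher (8 and 1 by DESeq2), with a median of -0.08. DCUN1D4 (-0.49) and UBA3 (-0.46), which help attach NEDD8 to cullins, and COPS3 (-0.46), a subunit of the signalosome that removes it, had the largest falls. COPS6 (0.49), COPS7A (0.19) and COPS8 (0.16), subunits of the same signalosome, rose, the last 2 without a DESeq2 call. With scaling by library size alone the list had 8 lower and 6 higher and a median of 0.04. Of 8 ubiquitin-conjugating enzymes, 4 were lower and none was higher in edgeR at the adjusted threshold (3 and 0 by DESeq2, 3 and 1 with scaling by library size alone), led by UBE2D3 (-0.31), UBE2G1 (-0.27) and UBE2D2 (-0.27), with a list median of -0.14.

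HUWE1 was then set beside its own class. Of 26 HECT ligases tested, 6 were lower and 9 higher (4 and 14 with scaling by library size alone, 8 and 7 with length and GC trends removed), with a median of 0.04, and HUWE1 had the highest change among those averaging 1 CPM or more. Among the called HECT ligases NEDD4L (0.35) and WWP1 (0.35, not called by DESeq2) followed it, and NEDD4 (-0.90), HACE1 (-0.47) and SMURF2 (-0.40) had the largest falls. Of 39 TRIM proteins tested, 10 were lower and 15 higher (6 and 19 with scaling by library size alone), with a median of 0.13. TRIM71, a stem cell RNA-binding protein, fell most (-1.67), then TRIM28 (-0.63), the KAP1 corepressor, and TRIM36 (-0.61). TRIM54 (2.68), TRIM47 (1.63) and TRIM17 (1.41) had the largest rises among those averaging 1 CPM or more. TRIM32 had a smaller change than all of these. TRIM54 rose from low levels of 1.49 and 2.27 CPM in shControl, and TRIM47 from 0.543 and 0.819 CPM.

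Of 11 other ligases known to act on MYC-family proteins, 3 were lower and 2 higher (2 and 5 with scaling by library size alone), with a median of -0.06. SKP2, which is also on the F-box list, MDM2 (-0.53) and FBXL14 (-0.33, not called by DESeq2) were the lower ones, and FBXO32 and TRPC4AP (0.25) the higher ones. Of 9 deubiquitinases that oppose them, 3 were lower and 4 higher (4 and 3 with length and GC trends removed). USP1, which removes ubiquitin in DNA repair, fell from 319 and 318 CPM to 132 and 133 CPM (-1.27, SE 0.04, edgeR adjusted p 1.77e-21), a larger change than any of the 8 genes had. USP3 (-0.28) and USP28 (-0.23, not called by DESeq2) were the other lower ones, and USP28 is an enzyme known to oppose FBXW7. USP11 (0.82), USP22 (0.37) and USP36 (0.22) had the largest rises.

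Most tested partners of AURKA, and many substrates of the ligases, were lower. Of 12 Aurora kinase partners and relatives tested, 10 were lower and none was higher in edgeR at the adjusted threshold (9 and 0 of 13 by DESeq2), with a median of -0.64. AJUBA (-1.75) and NEDD9 (-1.03), which promote AURKA activity, and INCENP (-0.89), the partner of Aurora B, fell most. Of 22 tested substrates of FBXW7 or HUWE1, a list that holds AURKA itself and MYCN, 12 were lower and 3 higher (11 and 6 with scaling by library size alone), with a median of -0.25. CDC6 (-1.83) and CCNE2 (-1.19) had the largest falls, and NOTCH1 (0.95), GATA3 (0.57) and JUN (0.57) rose. CDC6 and CCNE2 are genes of DNA replication and the G1 to S step. The G2/M list above was led by PIMREG (-1.78), SMC4 (-1.50) and CDC25C (-1.36), and JPT1 rose by 0.29 on the log2 scale. It shares TACC3, TPX2 and AURKB with the Aurora list, AURKA with the substrates and CDK1 with the degradation signal genes below. PLK1 is on both the Aurora and the substrate list, so the medians of these lists are not separate observations.

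The kinases and phosphatases around the degradation signal were described last. Of 23 such genes, 13 were lower and 1 higher (9 and 1 by DESeq2, 8 and 2 with scaling by library size alone), with a median of -0.18. CIP2A (-1.16), an inhibitor of the phosphatase PP2A that removes the priming phosphate, and CDK1 (-1.04), a kinase that can phosphorylate the priming serine, fell most, and PPP2R5B (0.52), a regulatory subunit of PP2A, rose. Of 11 tested genes of the PI3K and AKT path, which restrains GSK3, 4 were lower and 2 higher (2 and 3 with scaling by library size alone, 6 and 1 with length and GC trends removed), with a median of -0.05. AKT1 (-0.59), RICTOR (-0.27) and PIK3CA (-0.26, not called by DESeq2) were the largest falls, and PIK3R1 (0.79) and AKT2 (0.16, not called by DESeq2) rose. With scaling by library size alone the medians of the cullins, the other MYC-family ligases, the deubiquitinases and the PI3K and AKT list turned positive (0.05 to 0.09), while those of the Aurora partners, substrates, phosphodegron genes and G2/M genes stayed negative (-0.67 to -0.07).

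**Figure D4:**
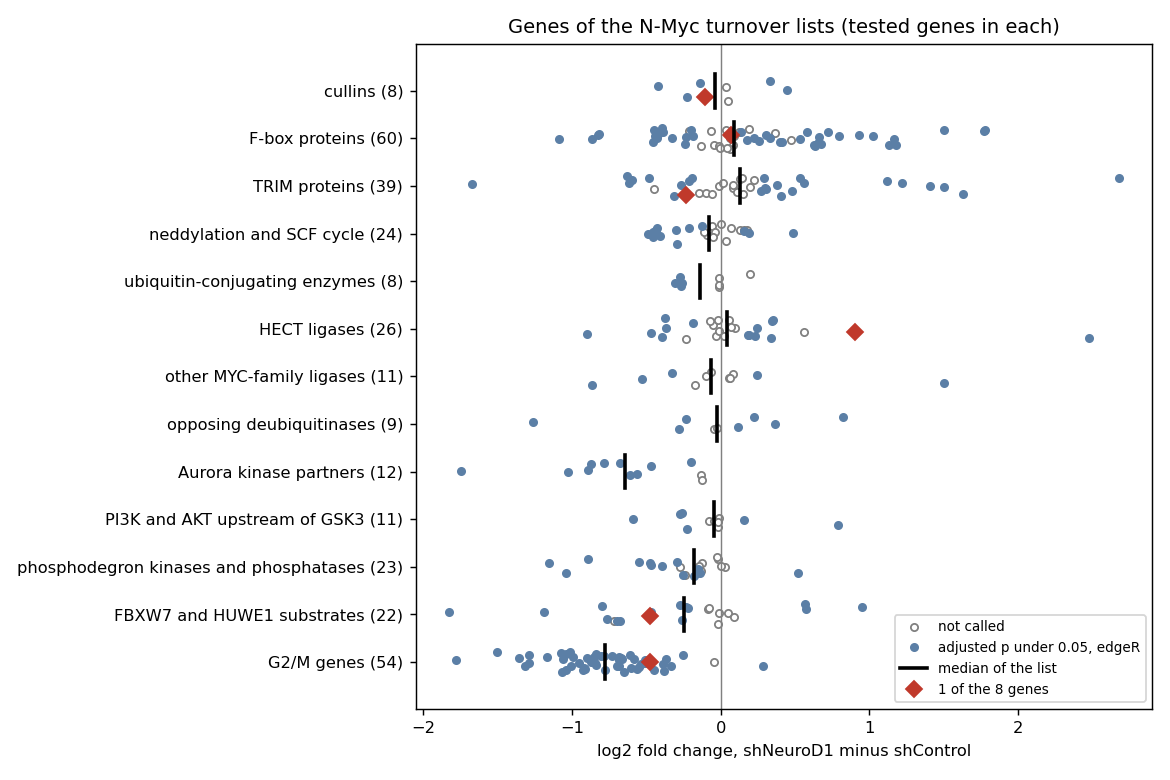
Log2 fold change, shNeuroD1 minus shControl (x axis), of every tested gene in each list of N-Myc turnover genes (y axis, number tested in brackets). Filled circles passed an adjusted p of 0.05 in edgeR, open circles did not, red diamonds are members of the 8 genes and black bars are list medians. The Aurora partners (-0.64) and G2/M genes (-0.78) have medians well below 0, and the other medians lie between -0.25 and 0.13.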

How the data were processed

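RNA of 4 IMR-32 libraries was measured by poly(A) RNAseq (the labels also name an rRNA removal kit). The authors deposited raw counts for 60612 Ensembl genes. Per the submitters' processing notes, cutadapt 1.9.1, HISAT2 2.0.1, HTSeq 0.6.1, DESeq2 and hg38 were used. The use of strand and the annotation release are not given in the sources used here. The authors also deposited, per library, FPKM of transcript starts, ends and splicing events, listed only above 0, from a tool that is not given. Their coordinates were checked against GENCODE 29 on GRCh38. Events were given to a gene by position and strand.

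Symbols were found for 60401 gene IDs. Counts were analysed in edgeR 4.0.16 (R 4.3.3) with filterByExpr, TMM, a two-sided quasi-likelihood F test and Benjamini-Hochberg adjustment over 17537 genes, called at an adjusted p under 0.05. The SE is the size of the log2 fold change divided by the square root of F. The procedure was tested on simulated data. The labelled cells' markers and the gene lists were written by hand, except the G2/M list from Seurat 5.3.0. Members and lists were chosen with earlier results of these data known. Named list genes are, in each list, up to 3 called genes with the largest fall and 3 with the largest rise among those averaging 1 CPM or more. Some genes that meet this rule are not reported here. NEUROD1 shares exons with CERKL, and overlapping genes were left as counted. Alternatives were other scalings and filters, DESeq2 1.42.0, limma 3.58.1 on log2(FPKM + 1) and log2(FPKM + 0.1) where a gene averaged 1 FPKM or more, length and GC offsets, the replicate number as a block, a log2 fold change beyond 1, leaving out each library, and start shares over events listed in all 4 libraries. Replicates of a group differed by more than counting noise (chi-square per degree of freedom 2.53 in shControl and 1.56 in shNeuroD1). Promoter and microRNA sequences are from RefSeq on GRCh38.p14, and the GSK3B exon is from GENCODE 29.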

Additional observations from a re-analysis of the deposited data

How the results depend on the processing

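The direction of HUWE1, GSK3B, FBXW7, AURKA and GSK3A did not change in any of the 15 alternatives run for each gene. The stricter fold threshold among them kept the reported values, so direction could not change there. It is included in the counts that follow. Over the 8 genes, 87 values kept direction and call, 27 lost the call, 2 gained it and 4 changed sign. Calls were fewer with DESeq2 (1 lower, 1 higher), which lost TRIM32 (-0.25), GSK3A (-0.21) and GSK3B (0.16), and 2767 genes were then higher. Scaling by library size alone left 1 member lower, lost TRIM32 (-0.12) and GSK3A (-0.084), gained FBXW7 (0.18) and turned SKP1 (0.014) and CUL1 (0.004), which is the shift of the median gene to 0.12. Limma on log2(FPKM + 1) and log2(FPKM + 0.1) called 0 members either way, lowered the calls over all genes to 278 and 257 lower and 246 and 206 higher, turned TRIM32 (0.047 and 0.056), and left HUWE1 at 0.50 and 0.53, AURKA at -0.17 and -0.19, GSK3A at -0.14 and -0.14 and GSK3B at 0.24 and 0.25 without a call. The cause was not tested. Asking also for a log2 fold change beyond 1 left 0 members, with values as reported (HUWE1 0.90, GSK3B 0.17, AURKA -0.48, TRIM32 -0.23, GSK3A -0.20), and 902 genes lower and 1541 higher.

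Leaving out 1 library, the lone library of a group being assumed to vary like the other group, gave 0 to 2 members lower and 1 to 2 higher. The log2 fold changes ranged from 0.84 to 0.95 for HUWE1, 0.12 to 0.20 for GSK3B, 0.03 to 0.09 for FBXW7, -0.16 to -0.06 for SKP1, -0.17 to -0.06 for CUL1, -0.27 to -0.14 for GSK3A, -0.27 to -0.20 for TRIM32 and -0.61 to -0.35 for AURKA. Genes lower numbered 3464 to 4213 and genes higher 2828 to 3860.

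The labels do not say whether same-numbered libraries were paired. The correlation of their deviations from the group means was 0.016 over 17537 genes. With 2 libraries a group this value cannot show whether they shared a culture or batch. With the replicate block edgeR called 5000 genes lower and 4748 higher, SKP1 was called (-0.10, adjusted p 0.0492), and no other member's call changed. Start shares were also taken over events listed in all 4 libraries. Every HUWE1 and AURKA start was listed in all 4, so their shares could not change under this setting. The difference between groups moved by less than 1 SD for FBXW7 (7.73 to 6.47 percentage points) and CUL1 (-3.49 to -3.59). The FBXW7 shares themselves moved by more than 1 SD in both groups (47.1% to 54.4% and 54.8% to 60.9%) and then overlapped. Depth limits TRIM32 most, at 363 counts in its lowest library.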
